A study of Mus musculus with 16 samples.

Results

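Transcript levels of 7 genes known from the 2-cell and preimplantation embryo were examined: Usp17la, Ubtfl1, Zfp352, Arg2, Spz1, Sp110 and Obox6. They are the preimplantation genes outside the Zscan4, Tcstv, Prame-like and Eif1a-like gene clusters, and they were chosen on their higher signal in Rybp-deficient cells of these same arrays. Every value of the Rybp-deficient against control contrast is therefore a description of the genes as chosen, without a test. They are 7 of 18193 genes with a probe set of their own, and 11 of 45037 probe sets carry their symbols. Mouse embryonic stem (ES) cells of a mixed 129/B6 background were sampled on 16 arrays. In the Rybp-deficient cells, called KO, 4-hydroxytamoxifen (OHT) had been given at 800 nM for 24 hours, and RNA was taken at day 12 and at day 4 from clones 15 and 10. The control cells, which the design text calls wild-type, were cells of the same clones and days without OHT. Each clone, day and condition has 2 arrays, numbered replicate 1 and 2, so a condition has 4 arrays per day. No control received OHT, so the action of OHT itself, or of a recombinase it switches on, cannot be told apart from the loss of Rybp. Whether replicates came from separate cultures is not stated in the labels, so that p-values capture only array-to-array spread, possibly technical. Cultures held serum and leukaemia inhibitory factor, with irradiated fibroblast feeders or gelatin beneath the cells, and which array had which is not given.

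The 2-cell stage is when the mouse embryo begins to transcribe its own genome, and several gene families are switched on there and fall silent soon after. ES cells keep these genes almost silent, apart from rare cells in the culture that pass through a state resembling the 2-cell embryo. Rybp is a subunit of variant Polycomb repressive complexes, which are known to hold germline and early embryonic genes silent in ES cells. A mean over a culture, as measured here, cannot tell few cells with much of a transcript from many cells with little of it.

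Among the members, Zfp352 and Sp110 are shown by the sequence in front of their annotated starts, since these hold repeated copies of the same 6 letters. Of the 7 genes 5 had an entry among the RefSeq promoter windows (GRCm38.p6), each running from 250 bases before to 50 after an annotated start, with 6 windows in all because Sp110 has 2. No entry was used for Arg2 and Obox6. The bases before the start are printed 5′ to 3′ on the strand of the gene, and capitals mark TAATCC, letters that some paired-like homeobox factors bind, or its reverse complement.
Zfp352, chr4:90218570-90218819, plus strand: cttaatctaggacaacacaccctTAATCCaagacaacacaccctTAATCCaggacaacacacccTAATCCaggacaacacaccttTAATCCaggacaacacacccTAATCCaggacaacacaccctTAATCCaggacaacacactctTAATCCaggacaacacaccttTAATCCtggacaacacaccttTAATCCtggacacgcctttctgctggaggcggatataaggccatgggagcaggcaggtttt
Sp110 window 1, chr1:85603892-85604141, minus strand: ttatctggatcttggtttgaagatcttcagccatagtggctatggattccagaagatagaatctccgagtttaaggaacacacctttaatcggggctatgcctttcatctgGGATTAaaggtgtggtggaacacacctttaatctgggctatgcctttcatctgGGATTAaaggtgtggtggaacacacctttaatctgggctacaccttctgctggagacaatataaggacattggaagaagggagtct
The Zfp352 window held TAATCC 9 times, always on the strand of the gene, with first bases 20 to 21 bases apart between -227 and -61 from the start. At least 1 match on either strand was present in 7.06% of 32544 distinct windows of the same length, and this was the only window of them with 9 or more (0.00307%). In the printed sequence the letters before each match recur almost unchanged. The 9 matches are thus copies within a repeated stretch and not separate occurrences. The printed Sp110 window held 2 matches on the opposite strand, at -139 and -86, a number reached by 117 windows (0.36%), and the other Sp110 window held 1 at -165. The matches of the printed Sp110 window likewise lie in a stretch that is repeated. The windows of Usp17la, Ubtfl1 and Spz1 held none. The Zfp352 window and the printed Sp110 window also shared the 15-base stretch aacacacctttaatc, present 3 times in either and found in 19 windows (0.0584%). The other motifs were searched on both strands as well, and they did not recur among the members. The E-box CACGTG (7.17% of windows) and the Dux-type letters TGATTNAAT (0.719%) were in none of the 6 windows. The E2F6-like letters TCCCGC (20.1%) occurred 1 time, after the start of the other Sp110 window, and the interferon-response core GAAANNGAA (8.53%) 1 time, in the Spz1 window at -25. These matches are letters in a window and say nothing about binding.

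**Figure D1:**
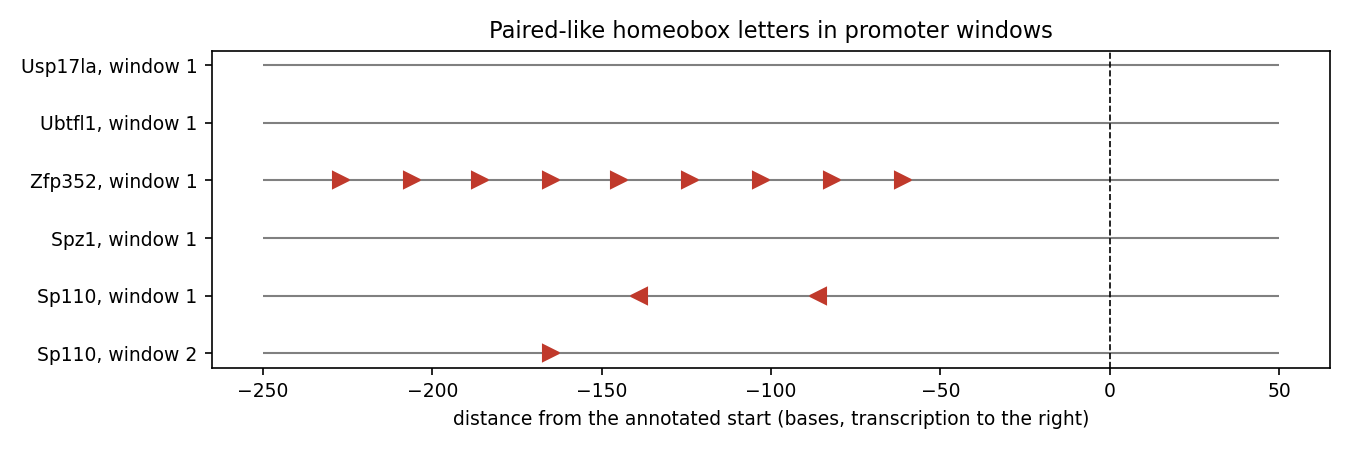
Position of TAATCC on either strand in the 6 RefSeq promoter windows of the members, in bases from the annotated start (dashed line). Arrowheads point right for the strand of the gene and left for the opposite strand. Zfp352 has 9 evenly spaced matches on its own strand, and the windows of Usp17la, Ubtfl1 and Spz1 have none.

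The labels and the cell type were checked on the same arrays. Probe set 1421111_at, annotated to Rybp and its pseudogene, read 109 to 256 in KO and 2749 to 3434 in control cells at day 12, and 84.9 to 125 in KO and 2047 to 3319 in control cells at day 4. The other such probe set, 1428219_at, ran the opposite way, at 2815 to 5148 in KO and 157 to 2108 in control cells at day 12 and 4374 to 7612 in KO and 255 to 2771 in control cells at day 4. Its log2 difference of 2.95 ± 0.74 at day 12 and 2.82 ± 0.74 at day 4 did not pass (limma adjusted p = 0.0518 and 0.154). Every KO array was nevertheless above every control array of its day. In untreated cells this probe set was lower in clone 15 than in clone 10 by a log2 difference of -3.27 ± 0.26 (limma adjusted p = 0.00425). Its OHT effect was larger in clone 15 by a log2 difference of 3.51 ± 0.36, without passing (limma adjusted p = 0.0503). The 12 ES cell markers all had group means above 28.3, the 25th percentile of all intensities, with summed levels of 118460 to 139130 in KO and 128450 to 150790 in control cells at day 12. At day 4 the sums were 138160 to 144100 in KO and 135040 to 145340 in control cells. The summed levels of the 9 of 10 trophectoderm markers measured were above control in every KO array, 3529.8 to 3892 against 2513 to 2951 at day 12 and 3884 to 4220.1 against 2863 to 3525.5 at day 4. Of these 9, the group mean was below the 25th percentile for 1 in KO and 2 in control cells at either day, and Cdx2, a defining marker, read 12.0 to 76.0 in KO and 3.39 to 12.4 in control cells of day 12, and 22.0 to 39.9 in KO and 36.0 to 50.1 in control cells of day 4. The sums of 12 primitive endoderm markers were 16346 to 26353 in KO and 10830 to 18087 in control cells at day 12, and 1516 to 4076 in KO and 1478 to 3544 in control cells at day 4. The sums of the 15 of 16 feeder fibroblast markers measured were 5617 to 7042 in KO and 5009.6 to 5778 in control cells at day 12, and 3295 to 5624 in KO and 3245 to 4627 in control cells at day 4. What these lists contribute to the member levels was not tested.

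The 4 members that encode DNA-binding proteins of the early embryo or the testis differed widely in how far their KO level stood above control. Zfp352 encodes a zinc-finger protein first transcribed at the 2-cell stage. On probe set 1425879_at its intensity was 584 and 600.4 in clone 15 and 613 and 786 in clone 10 in KO cells of day 12 (replicate 1, then 2), against 77.8, 69.5, 61.1 and 74.0 in control cells in the same order of arrays, which all lists here keep. In the arrays of day 4 it was 465, 395, 372 and 323 in KO cells, against 71.7, 40.8, 59.8 and 88.3 in control cells. The KO arrays of day 12 lay highest, those of day 4 below them without overlap, and the control arrays of both days lay together at the bottom. The log2 difference was 3.19 ± 0.21 (SE) at day 12 and 2.62 ± 0.21 at day 4. A second probe set, 1425880_x_at, ran the same way at 632 ± 171 in KO and 21.0 ± 12.3 in control cells of day 12 (SD, n = 4), and 319 ± 106 in KO and 24.8 ± 19.5 in control cells of day 4. On that probe set, which carries the suffix of sets that may match further transcripts, each clone 15 control array was above each clone 10 control array.

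Ubtfl1 encodes a protein with HMG boxes, related to the ribosomal transcription factor Ubtf and transcribed in the preimplantation embryo. Its probe set 1439670_at read 735 and 656 in clone 15 and 782 and 619 in clone 10 in KO cells of day 12, against 23.5, 1.92, 35.1 and 23.4 in control cells. At day 4 it read 831, 387, 427 and 329 in KO cells, against 4.21, 2.63, 22.1 and 4.58 in control cells. All KO arrays were far above all control arrays, of which 7 of 8 were below the 25th percentile of 28.3, where differences carry large errors. The fitted log2 difference was 5.65 ± 0.78 at day 12 and 6.32 ± 0.78 at day 4. After values below that percentile were set to it, called low values raised here, the folds were 23.3 at day 12 and 16.3 at day 4, so the order of the days turned.

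Spz1 encodes a leucine-zipper transcription factor best known from the testis. Its probe set 1450653_at read 164 and 86.4 in clone 15 and 115 and 116 in clone 10 in KO cells of day 12, against 6.12, 10.2, 3.75 and 6.42 in control cells. On day 4 the values were 146, 99.7, 88.8 and 67.4 in KO cells, against 20.8, 9.10, 33.3 and 28.4 in control cells. KO levels of the 2 days overlapped, and the control arrays of day 12 were all below the 25th percentile. The log2 difference was 4.23 ± 0.42 at day 12 and 2.23 ± 0.42 at day 4, whereas with low values raised the fold was 4.14 at day 12 and 3.28 at day 4.

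Obox6 belongs to the oocyte-specific homeobox family, whose members are transcribed in the oocyte and early embryo. Its probe set 1440257_at read 222 and 200.4 in clone 15 and 227 and 228 in clone 10 in KO cells of day 12, against 97.5, 107, 101 and 130.3 in control cells. The day 4 arrays read 155, 129, 145 and 85.2 in KO cells, against 101, 61.2, 65.9 and 51.7 in control cells. The KO and control arrays were separate at day 12 and overlapped at day 4, where the lowest KO array lay under the highest control array. The log2 difference, 1.02 ± 0.22 at day 12 and 0.89 ± 0.22 at day 4, was the smallest of the members at either day. Of its relatives, the probe sets of Obox2, Obox3 and Obox5 did not pass the threshold at either day (limma adjusted p from 0.337 to 0.993). Probe set 1453090_x_at, shared by Obox1 and Obox2, passed at day 4 (limma adjusted p over all probe sets = 0.0323) and not at day 12 (0.466). It read 19.7 ± 8.50 in KO and 2.18 ± 0.74 in control cells of day 4 (SD, n = 4), with both means below the 25th percentile.

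Sp110 encodes a nuclear-body protein related to Sp100 that interferon induces in other cell types. Probe set 1456493_at read 614 and 576 in clone 15 and 402 and 477 in clone 10 in KO cells of day 12, against 85.8, 83.4, 87.2 and 59.8 in control cells. At day 4 it read 449.9, 215, 218 and 159.9 in KO cells, against 75.8, 94.5, 67.1 and 62.0 in control cells. KO arrays were above control arrays throughout, and clone 15 replicate 1 of day 4 lay within the KO range of day 12. The log2 difference was 2.71 ± 0.22 at day 12 and 1.70 ± 0.22 at day 4. The 2 other probe sets of Sp110 were dim, with no array above 72.5, and their KO and control arrays overlapped at both days. They did not share the rise. The log2 difference was -1.09 at day 12 and -0.79 at day 4 on 1429563_x_at, and 0.24 and -0.16 on 1429562_at.

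Usp17la and Arg2 encode enzymes. Usp17la belongs to the USP17 deubiquitinating enzymes, which remove ubiquitin from proteins and form a family of closely related copies. Probe set 1420773_at read 4619 and 3958 in clone 15 and 3886 and 4604 in clone 10 in KO cells of day 12, against 63.1, 60.4, 52.4 and 82.8 in control cells. For day 4 the intensities were 6628, 1928, 2819.9 and 1285 in KO cells, against 88.6, 18.1, 55.9 and 60.4 in control cells. The day 12 KO arrays were close together, and those of day 4 spread on both sides of them. The log2 difference was 6.06 ± 0.50 at day 12 and 5.76 ± 0.50 at day 4. Probe set 1450547_x_at, shared by Usp17ld and Usp17lc, read 576 ± 115 in KO and 27.4 ± 24.7 in control cells of day 12 (SD, n = 4), and 296 ± 168 in KO and 47.9 ± 18.7 in control cells of day 4. Its limma adjusted p over all probe sets was 0.00326 at day 12 and 0.277 at day 4. The other probe set of these genes, 1422229_at, read 446 ± 85.5 in KO and 34.0 ± 5.45 in control cells of day 12, and 210.2 ± 174 in KO and 30.1 ± 36.6 in control cells of day 4. It did not pass at either day, with a limma adjusted p over all probe sets of 0.0972 at day 12 and 0.207 at day 4. Matching of the Usp17la probe set to other copies of the family was not tested.

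Arg2 encodes the mitochondrial arginase, which splits arginine into ornithine and urea. Probe set 1418847_at read 503 and 434 in clone 15 and 348 and 439.7 in clone 10 in KO cells of day 12, against 5.28, 46.7, 25.7 and 22.6 in control cells. The arrays of day 4 read 370.2, 282, 173 and 153 in KO cells, against 1.79, 57.8, 32.2 and 39.3 in control cells. KO and control arrays did not overlap, and clone 15 replicate 1 was the lowest control array at both days. The log2 difference had a wide error, 4.46 ± 0.94 at day 12 and 3.59 ± 0.94 at day 4, and with low values raised the fold was 13.3 at day 12 and 6.05 at day 4. A second probe set, 1438841_s_at, read 299 ± 44.4 in KO and 10.7 ± 11.8 in control cells of day 12, and 137 ± 49.1 in KO and 14.5 ± 13.1 in control cells of day 4 (SD, n = 4). There control clone 15 replicate 1 read 11.3 at day 12 and 26.4 at day 4, and was the lowest control array at neither day. Arg1, the arginase of the liver, stayed dim at 10.6 ± 10.7 in KO and 5.75 ± 5.60 in control cells of day 12.

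**Figure D2:**
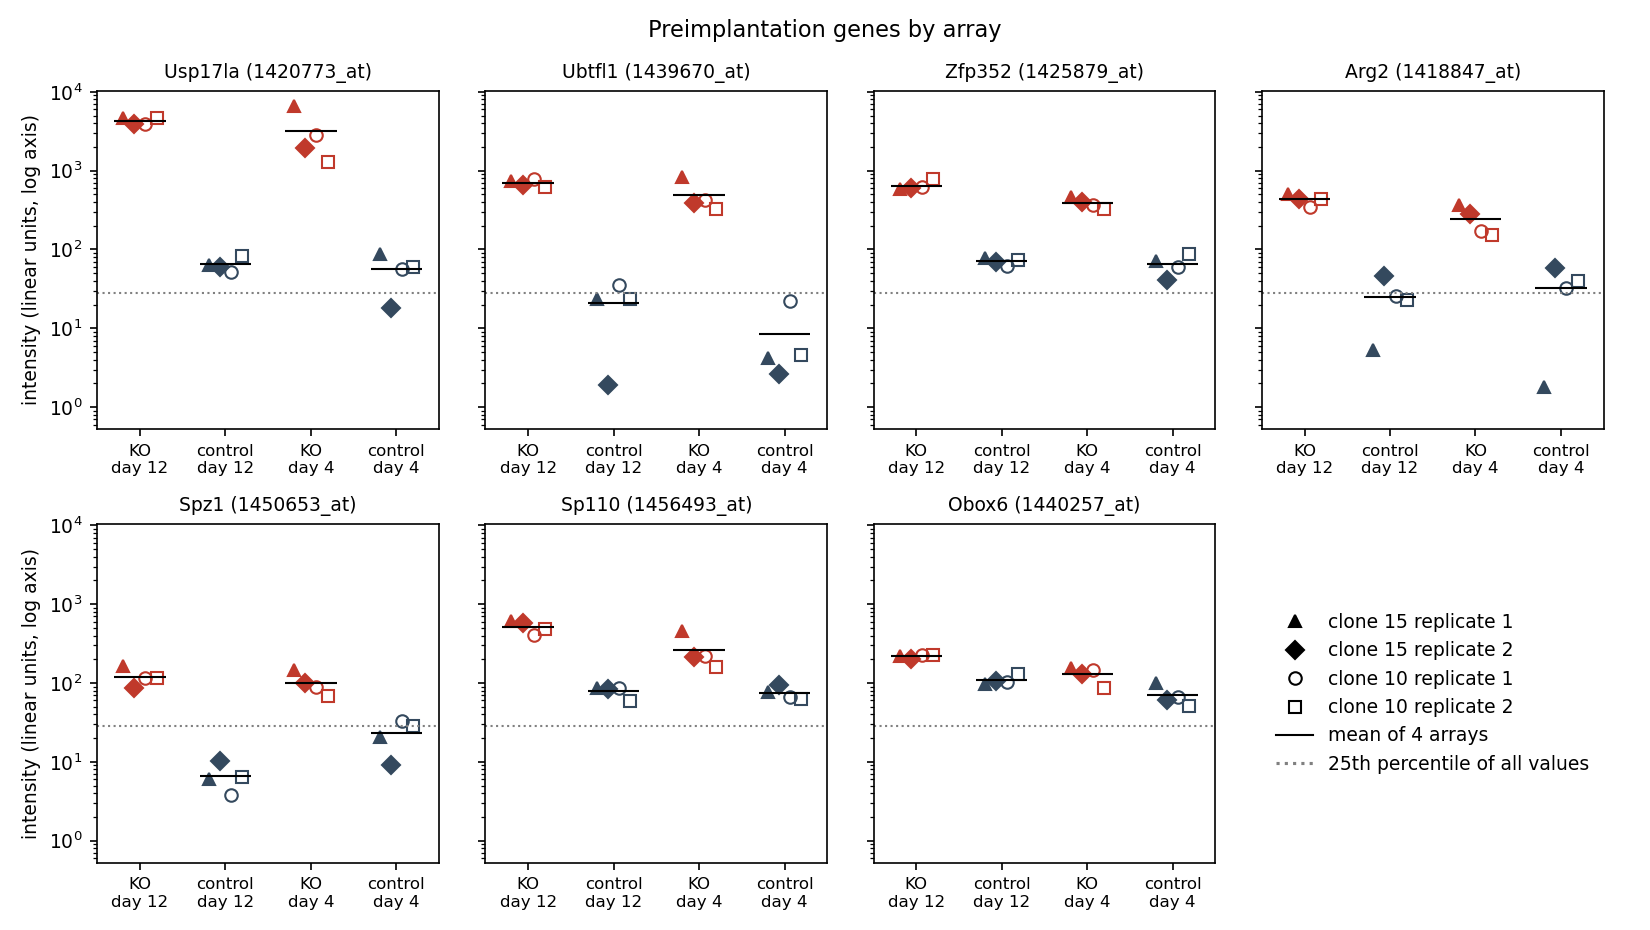
Deposited intensity (linear units on a log axis) of the brightest probe set of each member on all 16 arrays, by condition and day, with the mean of 4 arrays as a line and the 25th percentile of all values dotted. KO arrays stand above control arrays in every panel except for Obox6 at day 4, where they overlap, and the controls of Ubtfl1 are mostly below the dotted line.

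Counted over the members, 7 of 7 were past an adjusted p of 0.05 and higher in KO at day 12, beside 2.19% of all genes tested, while 0.901% were lower. At day 4 the count was 5 of 7, without Arg2 and Obox6, beside 0.566% of all genes higher and 0.0605% lower. Every KO array was above every control array of its day for 7 of 7 members at day 12, beside 7.41% of all genes, and for 6 of 7 at day 4, beside 3.49%. The median log2 difference of the members was 4.23 at day 12 and 2.62 at day 4, against 0.01 over all genes at either day. Since the members were chosen on this contrast, nothing is read from these shares. Leaving out any 1 of the 8 arrays of day 12 left 5 or 6 of 7 members past the threshold at that day, with Arg2, Obox6 or both lost, and no other member was lost.

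The KO arrays of day 4 had the same highest and the same lowest array for all members. Clone 15 replicate 1 had the highest level for 7 of 7 members and clone 10 replicate 2 the lowest for 7 of 7, while over all genes these arrays were the highest for 29.2% and the lowest for 27.5%. Replicate 1 was above replicate 2 in both clones for 7 of 7 members, and the share of all genes with this order was not computed. All genes leaned the same way. The replicate 1 arrays of clones 15 and 10 were the highest for 29.2% and 27.1% of them. The replicate 2 arrays were the lowest for 28.1% and 27.5%. The KO arrays chose the members, whose levels also go together over these arrays (median r of 0.82 over the 8 KO arrays). The counts of members are therefore not separate observations, and nothing is read from them. The highest KO array of day 4 exceeded the lowest 5.16 times for Usp17la, 2.81 times for Sp110, 2.53 times for Ubtfl1, 2.42 times for Arg2, 2.17 times for Spz1, 1.81 times for Obox6 and 1.44 times for Zfp352. At day 12 the same ratio was smaller for each member, from 1.14 for Obox6 to 1.90 for Spz1, and the order of the arrays was mixed, with clone 15 replicate 1 highest for 4 of 7. Residual Rybp signal in KO cells of day 4 was 84.9 in clone 15 replicate 1 and 125 in clone 15 replicate 2. It was 88.5 in clone 10 replicate 1 and 91.0 in clone 10 replicate 2. The transferrin receptor control, whose log2 ratio of 3′ over 5′ signal reflects RNA integrity, was higher on the replicate 1 arrays, at 1.35 in clone 15 and 1.48 in clone 10, than on the replicate 2 arrays, at 1.08 and 1.12. Over the same KO arrays of day 4, the ratio varied little for actin (0.46 to 0.57) and Gapdh (-0.37 to -0.23). It ranged widely for pyruvate carboxylase (0.16 to 1.84). What residual Rybp or RNA integrity contributes to the member levels was not tested.

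**Figure D3:**
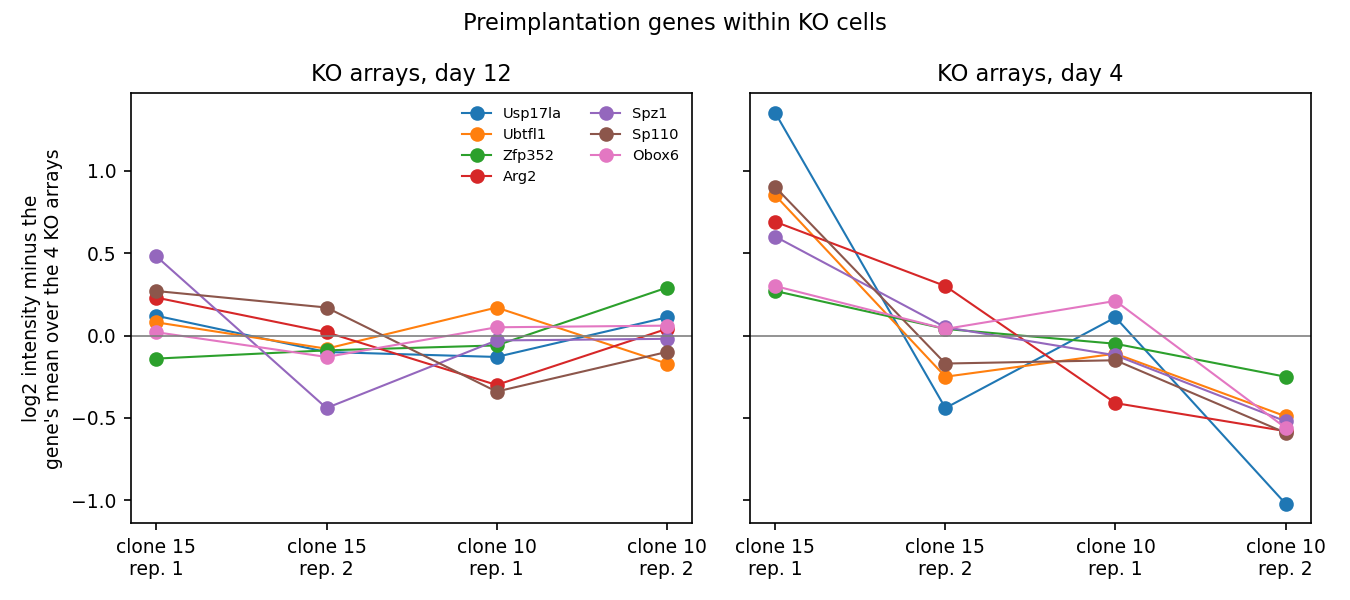
Log2 intensity of each member on the 4 KO arrays of each day, minus its mean over those arrays, with lines joining the points of a gene for legibility. At day 4 clone 15 replicate 1 is the highest and clone 10 replicate 2 the lowest for all 7 members, and at day 12 the arrays lie closer together in no common order.

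Within KO cells the levels of day 12 were compared with those of day 4 as a description, since the KO arrays chose the members. The log2 difference was above 0 for 7 of 7 members, 1.08 ± 0.22 for Sp110, 0.90 ± 0.94 for Arg2, 0.81 ± 0.22 for Obox6, 0.73 ± 0.21 for Zfp352, 0.71 ± 0.50 for Usp17la, 0.59 ± 0.78 for Ubtfl1 and 0.28 ± 0.42 for Spz1 (SE). Over all genes the median was 0.02, and 595 of 18195 entries passed the threshold in limma. The shares of all genes above 0 or without overlap were not computed, so nothing is read from the counts of members. On their brightest probe sets, Zfp352 and Obox6 had every KO array of day 12 above every one of day 4, and the other members overlapped. The levels of each member thus ran, from the top, KO day 12, KO day 4 and then the control arrays of both days, with the KO arrays of the 2 days overlapping for Usp17la, Ubtfl1, Arg2, Spz1 and Sp110, and those of KO day 4 overlapping the controls for Obox6. By clone, the KO minus control difference of day 4, with low values raised, was larger in clone 15 than in clone 10 for every member but Obox6. The folds in clone 15 and clone 10 were 71.4 and 32.8 for Usp17la, 20.0 and 13.2 for Ubtfl1, 7.93 and 4.77 for Zfp352, and 7.997 and 4.57 for Arg2. They were 4.27 and 2.51 for Spz1, 3.67 and 2.89 for Sp110, and 1.80 and 1.91 for Obox6. Each clone has 2 KO arrays here. Taken against the same-numbered control, clone 15 replicate 2 exceeded both clone 10 replicates for Usp17la, Zfp352 and Spz1. It did not for Ubtfl1, Arg2, Obox6 and Sp110, as with a fold of 2.27 against 3.24 and 2.58 for Sp110. The share of all genes with a larger difference in clone 15 was not computed, so nothing is read from this order of the clones. At day 12 the clones were closer, with folds in clone 15 and clone 10 of 69.3 and 64.2 for Usp17la and 8.05 and 10.3 for Zfp352.

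Comparisons within untreated cells did not choose the members and were tested in the fit to all genes, and no member passed. They share the control arrays with the contrast that did. In untreated cells, day 12 against day 4 asks whether the members drift in culture without OHT, and 0 of 7 passed an adjusted p of 0.05 in limma, beside 0.654% of all genes higher and 0.341% lower. An unadjusted p under 0.05 was reached by 2 of 7 members, beside 13.9% of all genes. Obox6 averaged 109 ± 14.6 at day 12 and 69.9 ± 21.3 at day 4 (SD, n = 4), with overlapping arrays and a log2 difference of 0.68 ± 0.22 (limma adjusted p = 0.170). Spz1 averaged 6.63 ± 2.69 at day 12 and 22.9 ± 10.5 at day 4, a log2 difference of -1.72 ± 0.42 (limma adjusted p = 0.0750). All 4 control arrays of day 12 and 2 of the 4 of day 4 were below the 25th percentile for Spz1. Its difference was -0.06 with low values raised. For the other members the 95% intervals of the log2 difference were -0.69 to 1.50 for Usp17la, -0.43 to 2.96 for Ubtfl1, -0.30 to 0.63 for Zfp352, -2.01 to 2.07 for Arg2 and -0.39 to 0.55 for Sp110. A change of up to those sizes in untreated cells is not excluded by these arrays.

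Between the clones without OHT, 0 of 7 members passed in limma, beside 0.0385% of all genes higher and 0.0275% lower in clone 15. An unadjusted p under 0.05 was reached by 1 of 7 members, beside 5.21% of all genes. The log2 difference of clone 15 minus clone 10 was -1.85 ± 0.74 for Ubtfl1 (limma adjusted p = 0.894) and -0.08 with low values raised. For Zfp352 it was -0.15 (95% interval -0.61 to 0.32), for Sp110 0.31 (-0.22 to 0.84) and for Obox6 0.13 (-0.36 to 0.62). The interval was wider for the members that are dim in control cells, as for Arg2 (-3.37 to 0.95). The difference of the OHT effect between the clones, averaged over both days, uses the KO arrays that chose the members and is given without a test of them. It was positive for 6 of 7 members, with a median of 0.58 on the log2 scale against 0.00 over all genes. Over all genes 0% passed in either direction in limma, while 585 of 18195 entries had an unadjusted p under 0.05. The difference was 2.14 ± 1.04 for Ubtfl1 and 0.38 with low values raised, 0.78 ± 0.74 for Usp17la and 0.19 ± 0.29 for Zfp352 (SE).

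**Figure D4:**
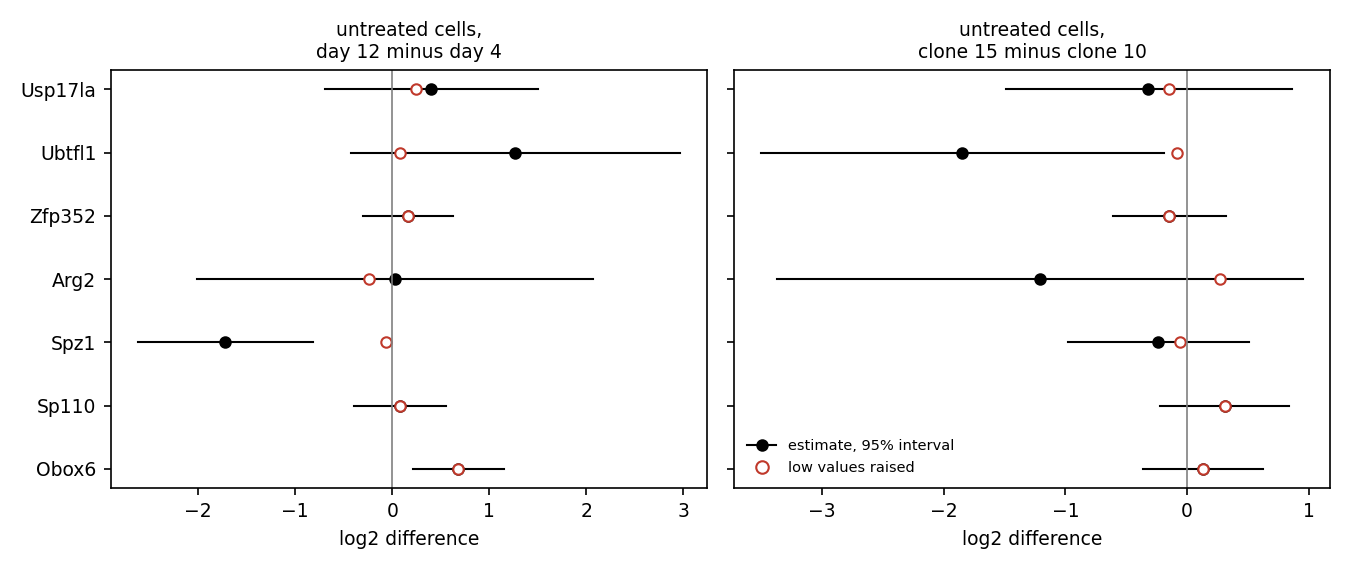
Log2 differences of the 7 members in untreated cells, day 12 minus day 4 on the left and clone 15 minus clone 10 on the right. Black points with bars are fitted differences with 95% intervals, and open points are the differences with low values raised. All but 3 intervals include 0, and the largest difference of either panel, of Spz1 by day and of Ubtfl1 by clone, shrinks once low values are raised.

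The genes whose pattern over the 16 arrays was most like each member were found by Pearson's r of log2 values with low values raised. The arrays fall into KO and control arrays, so that r mainly describes this separation, and it carries no p. Gm20767 was among the closest 3 genes for 5 of 7 members, with r of 0.998 to Ubtfl1, 0.992 to Usp17la, 0.985 to Zfp352 and 0.978 to Arg2 and Spz1. It read 2096 ± 137 in KO and 11.2 ± 13.6 in control cells of day 12, and 1200.3 ± 633 in KO and 2.99 ± 1.62 in control cells of day 4 (SD, n = 4). AF067061 was closest to Usp17la (0.994), Scd3 and Lonrf3 to Arg2 (0.980 each), Zfp560 to Spz1 (0.980) and D13Ertd608e, with Tcstv1 and Ly6k after it, to Sp110 (0.988, 0.974 and 0.973). Obox6 had the least close neighbours, Rcn1, Mtarc2 and Jam2, at 0.939, 0.917 and 0.916. Between the members themselves the median r of 21 pairs was 0.95 over the 16 arrays, 0.82 over the 8 KO arrays and -0.14 over the 8 control arrays. The KO arrays also differ by day and clone, and many control values are below the 25th percentile. For deviations from the means of the 8 groups of clone, day and condition, the median r was 0.43, with a range of -0.34 to 0.85.

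The gene lists were chosen with earlier results of these data known, so their counts and shares are a description and not independent support. Of 36 measured genes of a 2-cell and early embryo list, without the members, 10 were past the threshold and higher in KO at day 12. Of the rest, 0 were lower and 26 did not pass, beside 2.19% of all genes higher and 0.901% lower. The median log2 difference was 0.19 against 0.01 over all genes. The 5 largest fitted log2 increases were Tdpoz1 (4.14), Crxos (2.73), Lmx1a (2.64), Gata3 (2.47) and Fgf1 (1.56). Their order changed with low values raised, where the folds were 5.85 for Crxos, 4.998 for Lmx1a, 4.14 for Tdpoz1, 2.95 for Fgf1 and 1.59 for Gata3, whose control arrays were all below the 25th percentile. Tdpoz1, of a family of oocyte and 2-cell transcripts, read 124 ± 26.6 in KO and 11.9 ± 14.4 in control cells of day 12 (limma adjusted p = 0.0218). Crxos, a paired-like homeobox gene of the preimplantation embryo, read 247 ± 45.2 in KO and 44.7 ± 34.0 in control cells of day 12 (limma adjusted p = 0.00619). At day 4 none of the 36 passed, with a median of 0.27, and Crxos read 104 ± 37.8 in KO and 45.8 ± 19.2 in control cells.

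Of 35 oocyte and maternal effect genes, 2 rose at day 12 and 1 at day 4, and none fell, with medians of 0.27 and 0.12. Sohlh2, a helix-loop-helix factor of germ cells, read 1715 ± 206 in KO and 354 ± 59.9 in control cells of day 12 (limma adjusted p = 2.58e-06), and 1105 ± 142 in KO and 355 ± 16.6 in control cells of day 4 (limma adjusted p = 6.99e-05). Of 27 morula and blastocyst genes 6 rose and 1 fell at day 12, with a median of 0.13, and none passed at day 4. The 6 include Gata3, also on the 2-cell list, and Cdx2, with folds of only 1.59 and 1.62 with low values raised. Cdx2 averaged 46.7 in KO and 7.34 in control cells of day 12, but 30.5 in KO and 42.5 in control cells of day 4. Of 27 interferon-inducible genes, the setting in which Sp110 is best known, 2 rose and 1 fell at day 12 with a median of 0.01, and none passed at day 4. These were Xaf1 (1.37), Psmb9 (0.74) and Ddx58 (-0.53) on the log2 scale. Sp100, the relative of Sp110, read 30.1 ± 21.8 in KO and 30.1 ± 23.3 in control cells of day 12. Of 21 genes of arginine and polyamine metabolism 1 rose and 1 fell at day 12, with a median of 0.22, and none passed at day 4. Over all genes 2.19% rose and 0.901% fell at day 12, so counts of 1 or 2 in lists of this size lie near that background. Oat, which acts on the ornithine that arginase makes, read 3145 ± 383 in KO and 1898 ± 297 in control cells of day 12 (limma adjusted p = 0.00626), and Slc7a3, a transporter of arginine, was lower by a log2 difference of -0.67.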

How the data were processed

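RNA of 16 samples was extracted with Trizol and labelled as biotin cRNA, per the labels' protocols. The design text calls the array 430A 2.0, but the table has 45101 probe sets, as the larger 430 2.0 does. Deposited intensity values are linear and were made with Affymetrix Expression Console and RMA per the submitters' processing notes, with no version stated. Every array carries 1 common set of values (median 93.3), as quantile normalization leaves it. The number of arrays limits the precision, and detection calls were not used here. The genome build is not given in the sources used here.

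Names came from the platform annotation. Besides 64 AFFX controls, 34945 probe sets had 1 symbol, of which 34741 matched a mouse gene by Entrez identifier, 932 had several and 9160 none. The probe set with the highest mean stood for each of 18193 genes, and 2 Rybp probe sets shared with its pseudogene were added, 18195 entries in all. Values were log2-transformed without an offset and fitted with limma 3.58.1 (statmod 1.5.0, R 4.3.3), with the 4 groups of condition and day and the clone as terms, and with a mean for each of the 8 groups for comparisons between clones. P-values were adjusted by Benjamini-Hochberg over all entries, with a threshold of 0.05. Errors are SE for log2 differences and SD for intensities. For members, and for list genes described by their fold, that start from dim values, a fold after raising values below the 25th percentile (28.3) to that value is given too. The fit was tested on simulated data.

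The members, gene lists and tests were chosen with earlier results of these data known. The genes named are the members and their relatives on the array, Rybp, the 3 genes closest to each member by Pearson's r, and the list genes past the threshold, at most 5 per direction. Probe sets of relatives with several symbols were tested over all probe sets. The alternatives were low values raised, log2(value + 16), a filter on dim genes, every probe set, other variance settings, a replicate block, no clone term, and each array left out. Promoter windows were RefSeq's (GRCm38.p6) and were scanned on both strands.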

Additional observations from a re-analysis of the deposited data

Results flagged for a closer look

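Within the 28 sets of 4 arrays of a member, condition and day, 4 held an array far from the other 3 on the log2 scale by Dixon's test, and chance alone flags about 1 in 20 sets. Ubtfl1 read 1.92 in control clone 15 replicate 2 of day 12, below the other controls of that day. Arg2 read 1.79 in control clone 15 replicate 1 of day 4, again below the others. Both values are below the 25th percentile of intensity. On the second Arg2 probe set, control clone 15 replicate 1 of day 4 read 26.4, the highest of the controls of that day. Sp110 read 59.8 in control clone 10 replicate 2 of day 12, below the others. Zfp352 read 786 in KO clone 10 replicate 2 of day 12, above the other KO arrays of that day.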

How the results depend on the processing

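All 7 members stayed higher in KO at both days under each alternative, with 4 to 6 of 7 past the threshold at day 4 and 5 to 7 of 7 at day 12. The members were chosen on this contrast, so their calls describe how the fits differ and lend the members no support. Usp17la, Ubtfl1, Zfp352 and Sp110 passed under every alternative at both days. Spz1 was lost at day 4 with every probe set tested, with the trended variance, with the replicate block, and without any 1 of 6 arrays (at day 4 KO clone 15 replicates 1 and 2, KO clone 10 replicate 1 and control clone 15 replicate 1, at day 12 KO clone 10 replicates 1 and 2), whereas Arg2 passed there with low values raised or with log2(value + 16). Obox6 passed at day 4 with the replicate block and without control clone 15 replicate 1 of day 4.

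The counts over all genes moved more. With low values raised, 216 genes passed for KO against control at day 4 (114 in the fit reported), 909 at day 12 (563), 1094 for KO cells by day (595), 490 for untreated cells by day (181) and 2 for the OHT effect by clone (0). With the replicate block the counts were 178 at day 4, 1479 at day 12, 1 for the difference between the days (0), 346 for untreated cells by day and 31 for untreated cells by clone (12). The block changed no call of a member in untreated cells. Same-numbered arrays deviated together with r of 0.15 to 0.17 at day 4 and 0.03 to 0.07 at day 12 across condition or clone, and -0.03 to 0.02 across days, so the numbers were not taken to pair all samples, though the day 4 arrays share some deviation. Untreated cells by day gave 308 with dim genes left out and 352 with the trended variance. The OHT effect by clone gave 1 with log2(value + 16), with dim genes left out and with the trended variance. Leaving out 1 array gave 66 to 111 at day 4, 287 to 536 at day 12, 0 for the difference between the days, 239 to 593 for KO cells by day, 94 to 167 for untreated cells by day, 3 to 19 for untreated cells by clone and 0 to 1 for the OHT effect by clone. The day 4 count fell to 69, 66 and 70 without KO clone 10 replicate 1, clone 15 replicate 1 and clone 15 replicate 2 of that day. The day 12 count fell to between 287 and 370 without any 1 of the day 12 arrays other than control clone 15 replicate 1, KO cells by day to between 239 and 371 without any 1 KO array other than clone 15 replicate 1 of day 4, and untreated cells by day to between 94 and 115 without any 1 control array other than clone 15 replicate 1 of either day. Untreated cells by clone gave 6 without control clone 10 replicate 1, 3 without clone 15 replicate 1 and 19 without clone 15 replicate 2, all of day 12, and the last 2 gave 1 each for the OHT effect by clone. Causes were not tested.

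Among the members tested, Spz1 in untreated cells by day passed with dim genes left out (-1.72, limma adjusted p = 0.0486) and without control clone 15 replicate 2 of day 4 (-2.16, limma adjusted p = 0.0149), while its adjusted p reached 0.971 with low values raised, the highest of its alternatives. Arg2 changed sign with low values raised, to -0.24 by day and 0.27 by clone in untreated cells, and to -0.18 by day with log2(value + 16). Leaving out 1 array gave log2 differences by day of -0.12 to 0.71 for Usp17la, -0.05 to 0.34 for Zfp352, -1.15 to 0.67 for Arg2 and -0.059 to 0.14 for Sp110. By clone in untreated cells it gave -0.89 to 0.26 for Usp17la, -0.35 to 0.055 for Zfp352, -2.46 to 0.042 for Arg2, -0.53 to 0.062 for Spz1 and -0.05 to 0.31 for Obox6, and for the OHT effect by clone -0.017 to 0.39 for Zfp352 and -0.21 to 0.18 for Obox6. None of those in untreated cells passed. Without probe detection calls, differences below 28.3 cannot be told from background.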
